A study of Mus musculus with 8 samples.

Results

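The genes described here are those of the tumour necrosis factor (TNF) superfamily and of the transcription factor NF-kappaB: ligands, receptors, the TRAF adaptor proteins, the NF-kappaB subunits and their inhibitors. They were chosen by gene symbol, which gave 56 of the 35204 gene rows of the deposited table, and 44 of the 56 had a mean of at least 10 normalised counts over the 8 libraries and were tested. The libraries hold poly-A RNA of mouse liver. The 3 control libraries came from untreated wild-type C57BL/6J mice. The 5 TAZ-CCl4 libraries came from wild-type C57BL/6J mice given EF1a-TAZS89A by HTVI, read here as hydrodynamic tail vein injection, together with carbon tetrachloride (CCl4), a liver toxin, in 30 doses at 3 a week over 10 weeks. EF1a names a promoter active in most cell types, and TAZS89A is a form of the coactivator TAZ that lacks a serine through which the Hippo pathway restrains it. No library used here received the injection, the construct or CCl4 alone, and the labels put the controls and the TAZ-CCl4 libraries in separate sequencing projects. The construct, the injection, CCl4 and the project therefore cannot be told apart. The labels name liver pieces without saying whether they held tumour, and do not state that each library is a separate mouse, so that p-values describe the spread between libraries, part of which may be technical.

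TNF superfamily ligands are mostly trimers on the surface of immune cells or shed from it. Their receptors either carry a death domain, through which they can start cell death, or bind TRAF proteins, which lead to activation of NF-kappaB. In the canonical branch, inhibitors of the IkappaB family (such as Nfkbia) hold dimers of Rela, Rel and Nfkb1 in the cytoplasm until they are degraded. In the noncanonical branch, the kinase encoded by Map3k14 drives processing of the Nfkb2 product, which then acts with Relb. In liver the pathway is known for its part in inflammation, hepatocyte death and regeneration.

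Wwtr1, which encodes TAZ, stood at 463, 358 and 279.9 in the controls and 9021, 4339, 5114, 4892 and 5299 in the TAZ-CCl4 libraries, so Wwtr1 followed the labels. Normalised totals were 29.8 M to 35.1 M in the controls and 12.4 M to 14.2 M in the TAZ-CCl4 libraries, and the number of reads behind them is not given. Libraries of one group correlated at 0.929 to 0.979 and libraries of different groups at 0.7099 to 0.793 (log2 values, across tested genes). Hepatocyte markers were present in every library, and their summed level was 2215334 to 2717208 in the controls and 731527 to 1076903 in the TAZ-CCl4 libraries. Bringing all libraries to equal totals raises the median log2 fold change over every tested gene from 0.025 to 1.26, and leaving Mup and mitochondrial genes out of the totals gives 0.85. Equal upper quartiles give 0.22 and quantile normalisation -0.046. Directions below refer to the deposited scaling, and equal-totals values are printed beside the genes whose direction or call they turn.

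Most of the tested genes of the family were higher in the TAZ-CCl4 livers. At an adjusted p under 0.05 (limma), 30 of the 44 rose, 1 fell and 13 did not pass, where 62.3% of all 14171 tested genes passed, 32.4% rising and 29.8% falling. The median log2 fold change was 1.19 over the 44, beside 0.025 over all tested genes. In 29 of the 44 every TAZ-CCl4 library lay above every control, as in 30.7% of all tested genes, and in 0 did every one lie below, as in 29.4% of all. At equal totals 43 of the 44 were higher and 0 lower, beside 76.3% and 6.37% of all genes, and the median was 2.40. Leaving Mup and mitochondrial genes out of the totals gave 42 higher and 0 lower, beside 62.9% and 10.7% of all. Of the 44, 8 reached the mean of 10 only through their TAZ-CCl4 values (Tnf, Tnfsf8, Tnfsf13b, Tnfrsf13b, Tnfrsf18, Tnfrsf25, Eda2r and Nfkbid), so that they had to differ. All 8 enter the medians of 1.19 and 2.40 and the counts at equal totals. All but Tnfrsf25 are among the 29 genes without overlap. Of the other 36, 22 rose and 1 fell, beside 27.8% and 32.4% of all 13059 tested genes with a control mean of at least 10. In bulk tissue, more cells of one type and more RNA per cell cannot be told apart.

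**Figure D1:**
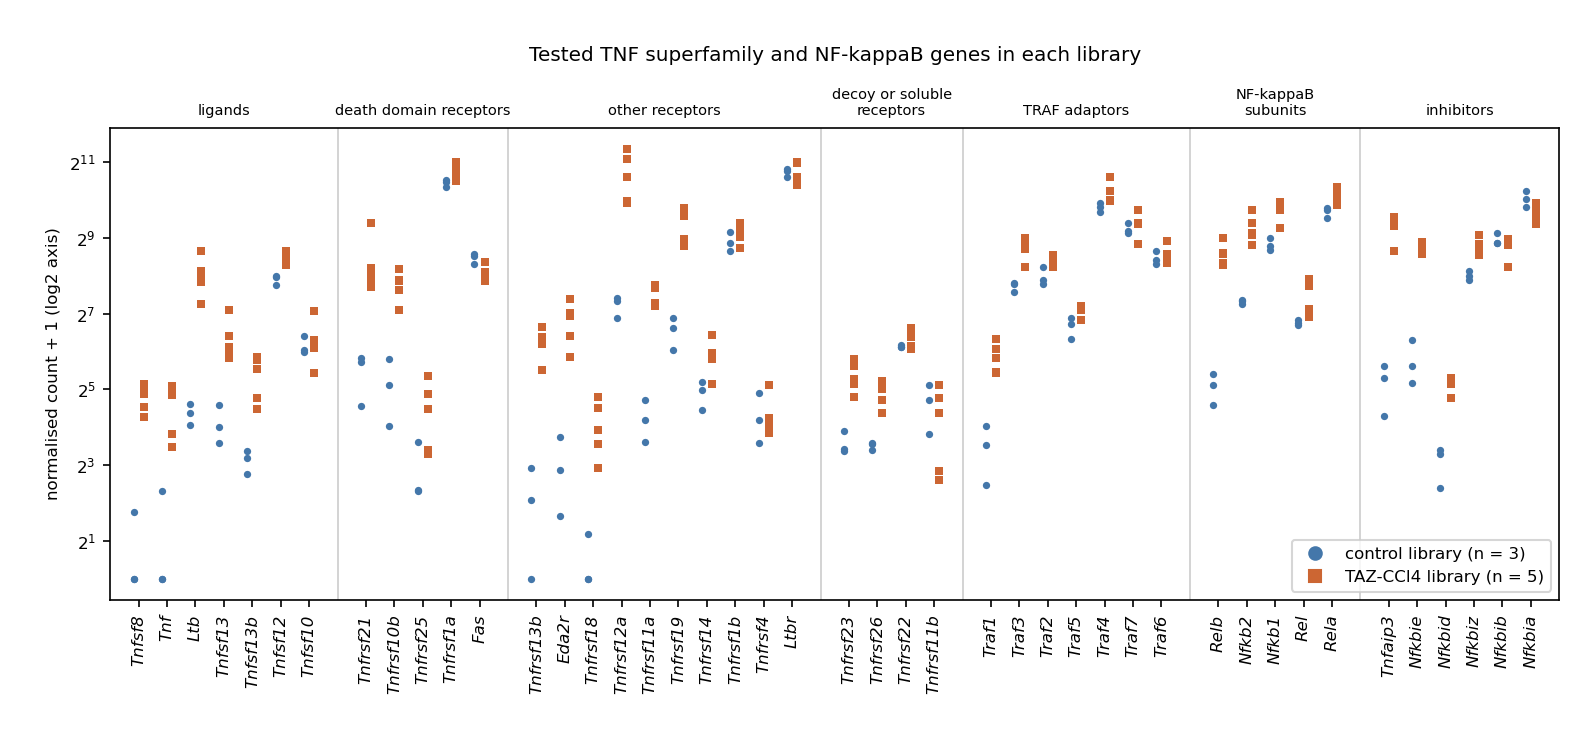
Normalised count plus 1 (log2 axis) of the 44 tested genes, ordered by role, with 1 circle per control library (n = 3) and 1 square per TAZ-CCl4 library (n = 5). In 29 genes all squares lie above all circles, with the widest gaps among Relb, Tnfaip3, Tnfrsf12a, Ltb and Tnfrsf13b and overlapping groups in Ltbr, Tnfrsf1b, Traf6 and Traf7.

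Among the ligands, 6 of the 7 tested genes rose and Tnfsf10 did not pass. Tnf, the founding cytokine of the family, was listed at 0, 3.95 and 0 in control replicates 1 to 3 and 13.0, 10.1, 32.9, 28.0 and 29.3 in TAZ-CCl4 replicates 1 to 5. All TAZ-CCl4 values lay above the controls, of which only replicate 2 held any signal. The rise was 12.7-fold on the log2(value + 1) scale (log2 fold change 3.66 ± 0.68 SE, adjusted p = 9.53e-04), and its size rests on the pseudocount and on that control: the log2 fold change was 1.48 with a pseudocount of 10, and without control replicate 2 the controls are listed at 0. Ltb encodes lymphotoxin beta, the membrane-bound ligand of the receptor encoded by Ltbr. It stood at 15.7, 19.9 and 23.5 in control replicates 1 to 3 and 229, 151, 277, 404 and 239.7 in TAZ-CCl4 replicates 1 to 5. All TAZ-CCl4 libraries lay far above the controls, with replicate 4 highest and replicate 2 lowest, and Ltb rose 12.2-fold (log2 fold change 3.60 ± 0.30 SE, adjusted p = 4.87e-06).

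Tnf and Ltb lie side by side on chromosome 17 (Ltb at 35194439 to 35196320, Tnf at 35199381 to 35202007, mm10), with a gap of 3.06 kb between them and of 1.16 kb from Tnf to the lymphotoxin alpha gene Lta. Lta was too low to be tested, at 0, 0 and 1.20 in the controls and 2.72, 0, 5.87, 4.01 and 6.56 in the TAZ-CCl4 libraries. All 3 neighbours were low in the controls, and every TAZ-CCl4 library held more of Ltb than any control did.

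The ligands of the B-cell survival system rose together. Tnfsf13b, which encodes BAFF, was at 9.42, 5.73 and 8.08 in control replicates 1 to 3 and 26.3, 53.7, 21.4, 57.1 and 45.9 in TAZ-CCl4 replicates 1 to 5, and each TAZ-CCl4 library exceeded each control. It rose 4.54-fold (log2 fold change 2.18 ± 0.42 SE, adjusted p = 0.00111; log2 fold change 1.46 with a pseudocount of 10). Tnfsf13, which encodes the related ligand APRIL, rose from 16.4 ± 6.13 to 81.3 ± 32.6 (mean ± SD of 3 controls and of 5 TAZ-CCl4 libraries, as for all such pairs below; log2 fold change 2.22 ± 0.36 SE, adjusted p = 3.83e-04). Tnfsf8, the ligand of the receptor CD30, was listed at 0 in control replicates 1 and 3 and at 2.41 in replicate 2, against a mean of 27.1 ± 6.78 in the TAZ-CCl4 libraries (log2 fold change 4.18 ± 0.54 SE, adjusted p = 8.80e-05; 1.77 with a pseudocount of 10).

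Tnfsf12 encodes TWEAK, the ligand of the receptor encoded by Tnfrsf12a. It stood at 250.2, 256 and 214 in control replicates 1 to 3 and 311, 379, 344, 401 and 343 in TAZ-CCl4 replicates 1 to 5, with the groups apart, and rose 1.48-fold (log2 fold change 0.56 ± 0.14 SE, adjusted p = 0.00619). Its exons and those of Tnfsf13, 465 bases away on chromosome 11, are shared with the read-through gene Tnfsfm13, which itself was at 70.0, 65.4 and 40.7 in the controls and 238, 231, 207, 287 and 236 in the TAZ-CCl4 libraries. How reads were divided between the 3 is uncertain. Tnfsf10, which encodes the death ligand TRAIL, was at 62.1, 84.4 and 65.2 in control replicates 1 to 3 and 42.2, 67.4, 133, 78.1 and 134 in TAZ-CCl4 replicates 1 to 5. TAZ-CCl4 replicates 3 and 5 lay above the controls and replicate 1 below them, and the gene did not pass (log2 fold change 0.25 ± 0.37 SE, adjusted p = 0.585). Equal totals made it higher (1.48), and its sign turned after quantile normalisation (-0.58).

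The other 8 ligands were too low to be tested. Fasl, which encodes the ligand of the death receptor Fas, was listed at 1.67, 2.14 and 0 in control replicates 1 to 3 and 11.6, 6.41, 8.66, 10.97 and 20.8 in TAZ-CCl4 replicates 1 to 5, so all TAZ-CCl4 libraries were above all controls at a low level. Tnfsf9, the ligand of 4-1BB, was at 0 in every control and at 3.91 to 9.34 in the TAZ-CCl4 libraries. Tnfsf11, Tnfsf18 and Tnfsf4 were also at 0 in every control and reached at most 4.38, 5.45 and 1.46. Tnfsf14 reached at most 10.3 in any library. Tnfsf15 had the opposite pattern, at 0, 7.24 and 8.39 in the controls and at most 1.10 in the TAZ-CCl4 libraries, with overlapping groups.

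Of the 5 receptors with a death domain, 3 rose, 1 fell and 1 did not pass. Tnfrsf10b, the receptor of TRAIL, was at 15.4, 33.9 and 54.6 in control replicates 1 to 3 and 196, 135, 236, 288 and 232 in TAZ-CCl4 replicates 1 to 5. The groups were well apart and Tnfrsf10b rose 6.70-fold (log2 fold change 2.74 ± 0.38 SE, adjusted p = 1.35e-04). Tnfrsf21, which encodes death receptor 6, rose from 43.6 ± 18.3 to 338 ± 191 (log2 fold change 2.89 ± 0.41 SE, adjusted p = 1.50e-04), with 676 in TAZ-CCl4 replicate 1 and 209 to 295 in the others. Tnfrsf25, which encodes death receptor 3, rose from 6.44 ± 4.22 to 21.5 ± 13.1 (log2 fold change 1.52 ± 0.59 SE, adjusted p = 0.0457) with overlapping groups. With a pseudocount of 10 its log2 fold change was 0.87. The call for Tnfrsf25 was lost without control replicate 1 or 2 and without TAZ-CCl4 replicate 2, 3 or 4 (log2 fold changes 1.31, 1.29, 1.37, 1.25 and 1.47) and after quantile normalisation (0.25), and its control mean was 4.002 without replicate 3.

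Tnfrsf1a, the main receptor of TNF, was at 1312, 1479 and 1425 in control replicates 1 to 3 and 2044, 1793, 1637, 1695 and 1457 in TAZ-CCl4 replicates 1 to 5. TAZ-CCl4 replicate 5 lay within the controls and the other 4 above them, and the gene did not pass (log2 fold change 0.29 ± 0.13 SE, adjusted p = 0.0745). It passed without TAZ-CCl4 replicate 5 (0.35), at equal upper quartiles (0.49), after quantile normalisation (0.75) and at equal totals (1.54). Fas (chromosome 19, 34290666 to 34327772), the receptor of Fas ligand and a mediator of hepatocyte death, was the single gene of the family that fell. It was at 379, 370.1 and 315 in control replicates 1 to 3 and 245, 233, 276, 256 and 326 in TAZ-CCl4 replicates 1 to 5. The highest TAZ-CCl4 library overlapped the lowest control, and the fall was small (log2 fold change -0.41 ± 0.16 SE, adjusted p = 0.0394). That call did not hold without control replicate 1 or 2 (-0.36 and -0.38) and without TAZ-CCl4 replicate 1, 2, 3 or 4 (-0.38, -0.37, -0.43 and -0.40) or at equal upper quartiles (-0.21), and Fas was higher at equal totals, at 0.83.

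Among the 14 receptors that recruit TRAF proteins or have another tail, 10 were tested, 7 rose and 3 did not pass. Tnfrsf12a (chromosome 17, 23675445 to 23677468) encodes Fn14, the small receptor of TWEAK that is known to be induced in injured liver. It stood at 159.9, 168 and 117 in control replicates 1 to 3 and 2616, 967, 1014, 2195 and 1567 in TAZ-CCl4 replicates 1 to 5. TAZ-CCl4 replicates 1 and 4 were highest and replicates 2 and 3 lowest, all 5 far above the controls, and Tnfrsf12a rose 10.48-fold (log2 fold change 3.39 ± 0.32 SE, adjusted p = 1.14e-05). Its ligand gene Tnfsf12 rose 1.48-fold in the same libraries. Eda2r (chromosome X, 97333840 to 97377216), a receptor of an ectodysplasin isoform and a known p53 target, was at 12.4, 2.12 and 6.33 in control replicates 1 to 3 and 84.4, 56.4, 129.6, 167 and 122 in TAZ-CCl4 replicates 1 to 5. All 5 values exceeded the controls and Eda2r rose 15.7-fold (log2 fold change 3.97 ± 0.50 SE, adjusted p = 6.94e-05; 2.81 with a pseudocount of 10), with a control mean of 6.95 that was 4.22 without replicate 1. Tnfrsf19, which encodes the orphan receptor TROY, rose from 93.3 ± 26.0 to 694 ± 208 (log2 fold change 2.86 ± 0.28 SE, adjusted p = 1.31e-05), and Tnfrsf11a, which encodes RANK, from 17.97 ± 7.20 to 185 ± 31.5 (log2 fold change 3.35 ± 0.28 SE, adjusted p = 5.38e-06), while its ligand gene Tnfsf11 stayed at 4.38 or less in every library.

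Tnfrsf13b (chromosome 11, 61126755 to 61149372) had the largest log2 fold change of the family. It encodes TACI, a receptor of BAFF and APRIL on B cells and plasma cells. It was at 0, 6.54 and 3.25 in control replicates 1 to 3 and 82.1, 44.5, 98.7, 72.6 and 78.3 in TAZ-CCl4 replicates 1 to 5, with the groups far apart (log2 fold change 4.54 ± 0.59 SE, adjusted p = 9.32e-05). The size depends on its low control values: the log2 fold change was 3.71 without control replicate 1, 5.16 without control replicate 2 and 2.68 with a pseudocount of 10, and the control mean of 3.26 became 4.89 and 1.62 without those replicates. The other 2 receptors of this system, Tnfrsf13c (the BAFF receptor) and Tnfrsf17 (the receptor BCMA), were too low to be tested, at 1.75 to 6.46 and 0 to 1.20 in the controls and 1.82 to 5.41 and 0 to 5.44 in the TAZ-CCl4 libraries. Markers of B and plasma cells moved unevenly beside them. Ms4a1 of B cells was at 9.83 ± 5.41 and 14.3 ± 4.68 in controls and TAZ-CCl4 libraries and did not pass (higher at equal totals, 1.68). Cd79a and Cd79b of B cells did not pass (-0.72 and -0.073 on the log2 scale) and were called lower after quantile normalisation (-1.82 and -1.14). At equal totals Cd79a did not pass (0.47) and Cd79b was higher (1.13). Pax5 fell (-2.15, and not passed at equal totals, -1.09), and Jchain and Mzb1 of plasma cells rose (3.52 and 1.41). Mzb1 had passed the filter only through its TAZ-CCl4 values, and its call was lost after quantile normalisation (0.23). The summed level of the 7 markers, most of it from Sdc1, which hepatocytes also express, was 2893 to 3913 in the controls and 3603 to 6654 in the TAZ-CCl4 libraries. The part of these cells in the change of Tnfrsf13b, Tnfsf13 and Tnfsf13b was not tested.

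Tnfrsf18, which encodes GITR, a receptor found on T cells, was at 0, 0 and 1.24 in the controls and 6.54 to 26.6 in the TAZ-CCl4 libraries (log2 fold change 3.55 ± 0.62 SE, adjusted p = 5.98e-04; 1.26 with a pseudocount of 10). Tnfrsf4, the gene of OX40 9.55 kb away on chromosome 4, did not pass (0.065; higher at equal totals, 1.24), with a sign that turned after quantile normalisation (-1.06) and without control replicate 2 or TAZ-CCl4 replicate 3 (-0.26 and -0.14). Tnfrsf14, which encodes HVEM, rose from 29.1 ± 7.32 to 59.5 ± 18.6 (log2 fold change 0.98 ± 0.33 SE, adjusted p = 0.0259) with overlapping groups, and its call was lost without control replicate 1 or 3 or TAZ-CCl4 replicate 5 (0.77, 1.03 and 0.96); after quantile normalisation its log2 fold change was -0.070. Tnfrsf9, which encodes 4-1BB, was at 0, 0.995 and 0 in the controls and 6.61 to 23.0 in the TAZ-CCl4 libraries, and Tnfrsf8, which encodes CD30, at 0 in every control and 0.992 to 2.98; neither reached the mean for testing. Of 9 tested T-cell markers 5 rose (Cd3e, Cd8a, Cd8b1, Trac and Lck), while Cd3d, Cd3g, Cd2 and Cd4 did not pass (0.78, 1.58, 0.90 and -0.21; at equal totals 1.95, 2.72, 2.02 and 1.01, of which all but Cd4 passed). Only 3 of the 9 had a control mean of at least 10, of which 1 rose, and the others passed the filter only through their TAZ-CCl4 values. The summed level of the list was 93.3 to 136 in the controls and 194 to 483 in the TAZ-CCl4 libraries. All 5 values of the T-cell sum were above the controls, and its part in the values of Tnfrsf18 and Tnfrsf9 was not tested.

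Tnfrsf1b and Ltbr did not pass the test. Tnfrsf1b, the TNF receptor found mainly on immune cells, was at 404, 566 and 466 in control replicates 1 to 3 and 519, 591, 676, 427 and 610.4 in TAZ-CCl4 replicates 1 to 5, with overlapping groups (log2 fold change 0.24 ± 0.18 SE, adjusted p = 0.267). It was higher at equal totals (1.48) and at equal upper quartiles (0.43). Ltbr was at 1803, 1747 and 1564 in control replicates 1 to 3 and 2045, 2036, 1341, 1565 and 1378 in TAZ-CCl4 replicates 1 to 5, with 2 TAZ-CCl4 libraries above and 2 below all controls (log2 fold change -0.049 ± 0.17 SE, adjusted p = 0.815). At equal totals Ltbr was higher, at 1.20. While the ligand gene Ltb rose 12.2-fold, its receptor gene had a log2 fold change of -0.049 at the same scaling, and at equal totals the log2 fold changes of Ltb and Ltbr were 4.81 and 1.20. Ltbr and Tnfrsf1a are neighbours on chromosome 6, 35.5 kb apart.

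The 4 decoy or soluble receptors divided. Tnfrsf23 and Tnfrsf26, members of a cluster on chromosome 7 to which the decoy TRAIL receptor genes belong, rose from 11.02 ± 2.49 to 40.3 ± 11.2 (log2 fold change 1.76 ± 0.34 SE, adjusted p = 0.00125) and from 10.4 ± 0.807 to 29.2 ± 6.54 (log2 fold change 1.37 ± 0.34 SE, adjusted p = 0.00481), and both calls were lost after quantile normalisation (0.66 and 0.27). Tnfrsf22, which lies between them, did not pass at 69.6 ± 1.67 and 82.3 ± 14.3 (log2 fold change 0.22 ± 0.22 SE, adjusted p = 0.393). It was higher at equal totals (1.46) and lower after quantile normalisation (-0.63). These receptors are close paralogs and Tnfrsf23 and Tnfrsf26 both overlap an antisense gene, so reads could be divided between them. Tnfrsf11b, which encodes osteoprotegerin, a soluble trap for the ligands RANKL and TRAIL, was at 13.2, 33.8 and 25.2 in control replicates 1 to 3 and 19.9, 6.21, 33.4, 5.11 and 26.2 in TAZ-CCl4 replicates 1 to 5. TAZ-CCl4 replicates 2 and 4 lay below all controls and the other 3 within their range, and the gene did not pass (log2 fold change -0.61 ± 0.64 SE, adjusted p = 0.429). Its sign turned at equal totals (0.56), and it was called lower after quantile normalisation (-1.75).

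Of the 7 TRAF genes, 3 rose and 4 did not pass. Traf1, itself a known NF-kappaB target, rose from 10.2 ± 5.45 to 57.2 ± 15.9 (log2 fold change 2.48 ± 0.41 SE, adjusted p = 4.10e-04; 1.74 with a pseudocount of 10). Traf3, whose product restrains the noncanonical branch by directing destruction of the Map3k14 kinase, rose from 210.3 ± 19.1 to 430.0 ± 79.7 (log2 fold change 1.01 ± 0.18 SE, adjusted p = 7.85e-04). Traf2, the adaptor of the TNF receptors, was at 301, 218 and 237 in control replicates 1 to 3 and 374, 302, 354, 327 and 355 in TAZ-CCl4 replicates 1 to 5. Its lowest TAZ-CCl4 library and highest control nearly touched, and the rise of 1.37-fold (log2 fold change 0.45 ± 0.15 SE, adjusted p = 0.0252) was no longer called without control replicate 2 or 3 or TAZ-CCl4 replicate 5 (0.35, 0.41 and 0.44) or after quantile normalisation (0.31). Traf4 at 904 ± 71.0 and 1162 ± 237, Traf5 at 101 ± 19.3 and 136 ± 13.6, Traf6 at 353 ± 43.3 and 377 ± 61.8 and Traf7 at 606 ± 57.1 and 665 ± 139 did not pass, with log2 fold changes of 0.34, 0.44 (-0.20 after quantile normalisation), 0.089 and 0.11. All 4 were higher at equal totals, at 1.59, 1.68, 1.34 and 1.36. Traf4 and Traf5 were also called higher at equal upper quartiles (0.54 and 0.63), and Traf4 after quantile normalisation (0.64).

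**Figure D2:**
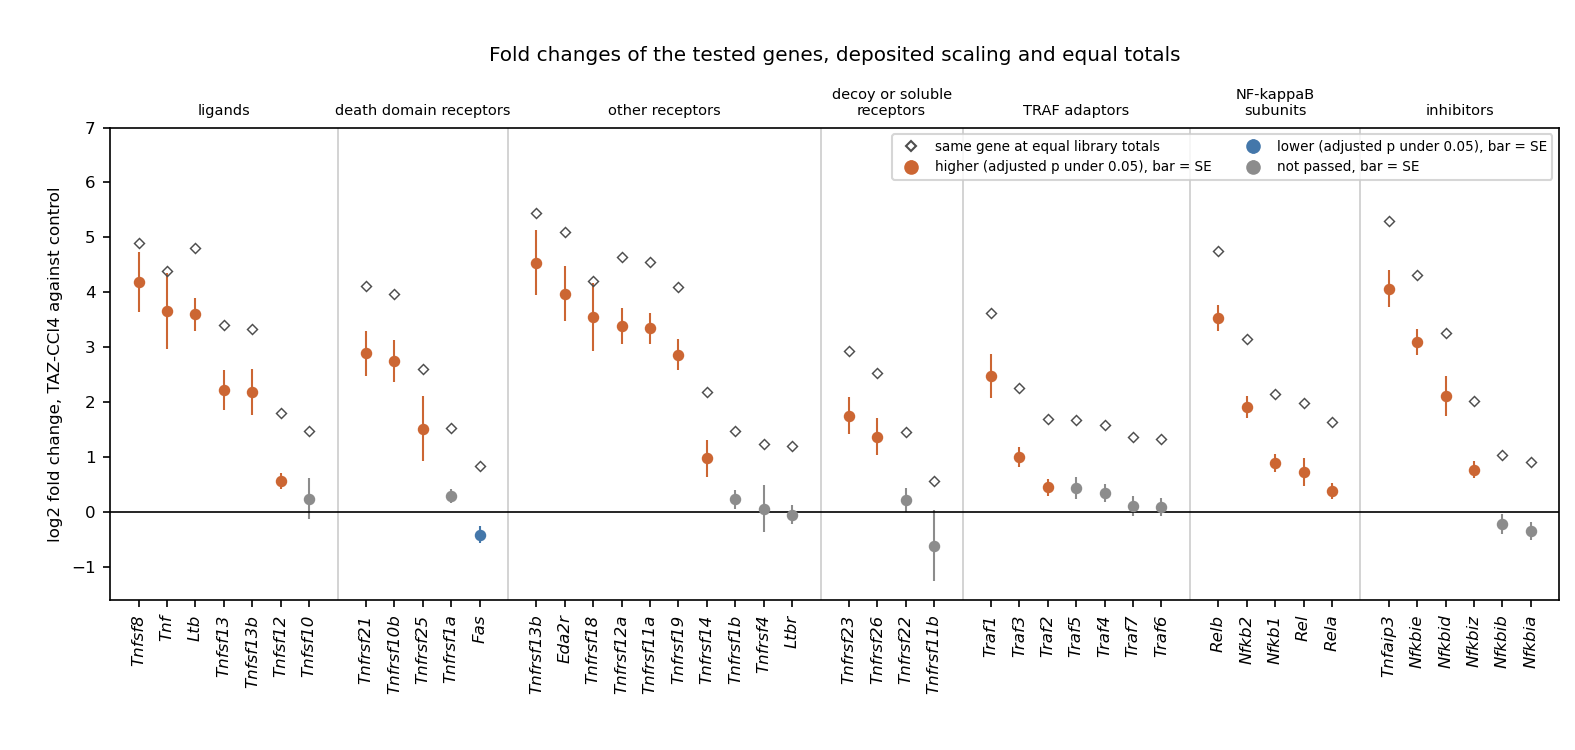
Log2 fold change of TAZ-CCl4 against control libraries for the 44 tested genes by role, with filled circles for the deposited scaling (bar = SE, colour = call) and open diamonds for the same genes at equal library totals. Only Fas is called lower at the deposited scaling, and its diamond lies at 0.83, above 0.

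The 5 NF-kappaB subunit genes all rose, and by very unequal amounts. Relb (chromosome 7, 19606217 to 19629438), the transcribing partner in the noncanonical branch, was at 22.9, 33.7 and 41.2 in control replicates 1 to 3 and 507, 314, 322, 378 and 388 in TAZ-CCl4 replicates 1 to 5. The groups were far apart, with TAZ-CCl4 replicate 1 highest, and Relb rose 11.5-fold (log2 fold change 3.53 ± 0.24 SE, adjusted p = 1.53e-06). Nfkb2, which encodes the precursor p100 of the same branch, was at 163, 161 and 153 in control replicates 1 to 3 and 848, 453, 543, 557 and 675 in TAZ-CCl4 replicates 1 to 5. The controls ran from 153 to 163 while the TAZ-CCl4 libraries ran from 453 to 848, and Nfkb2 rose 3.77-fold (log2 fold change 1.91 ± 0.19 SE, adjusted p = 1.74e-05). Exons of Nfkb2 overlap those of the opposite-strand gene Psd, and whether the counting used strand is not given. Exons of Tnfrsf18, Traf5 and Traf7 also overlap those of other genes, and their values are uncertain in the same way.

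Nfkb1, which encodes the p105 precursor of the canonical branch, was at 438, 512 and 413 in control replicates 1 to 3 and 985, 615, 857, 911 and 905 in TAZ-CCl4 replicates 1 to 5, with TAZ-CCl4 replicate 2 lowest but above all controls. It rose 1.86-fold (log2 fold change 0.90 ± 0.17 SE, adjusted p = 8.98e-04). Rela, the main transcribing subunit of the canonical branch, was at 734, 889 and 855 in control replicates 1 to 3 and 1313, 933, 954, 1029 and 1199 in TAZ-CCl4 replicates 1 to 5. The groups were apart by a small margin, and the rise was 1.31-fold (log2 fold change 0.39 ± 0.15 SE, adjusted p = 0.0401). Rel, the subunit of lymphoid and myeloid cells, was at 107, 102 and 114 in control replicates 1 to 3 and 210.0, 119, 239, 139 and 228 in TAZ-CCl4 replicates 1 to 5, where TAZ-CCl4 replicates 2 and 4 lay just above the controls and the other 3 well above them. It rose 1.67-fold (log2 fold change 0.74 ± 0.26 SE, adjusted p = 0.0281).

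The calls for Rela and Rel were close to the threshold. For Rela the call was lost without control replicate 1, 2 or 3 (0.30, 0.44 and 0.41), without TAZ-CCl4 replicate 1 or 5 (0.31 and 0.35), without the trend in the prior variance and with no filter on low values. For Rel it was lost without control replicate 1, 2 or 3 (0.73, 0.70 and 0.77), without TAZ-CCl4 replicate 1, 3 or 5 (0.68, 0.63 and 0.65) and after quantile normalisation (0.21).

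Of the 6 inhibitors, 4 rose and 2 did not pass. Tnfaip3 (chromosome 10, 19000910 to 19015657) encodes A20, a ubiquitin-editing enzyme that shuts off TNF signalling and is itself induced by NF-kappaB. It was at 38.1, 48.0 and 18.5 in control replicates 1 to 3 and 711, 639.6, 400.2, 406 and 749.8 in TAZ-CCl4 replicates 1 to 5. TAZ-CCl4 replicates 3 and 4 were at 400.2 and 406 and the other 3 between 639.6 and 749.8, all far above the controls, and Tnfaip3 rose 16.8-fold (log2 fold change 4.07 ± 0.33 SE, adjusted p = 4.07e-06). Nfkbie, which encodes IkappaB epsilon, rose from 53.4 ± 21.7 to 440.2 ± 40.4 (log2 fold change 3.09 ± 0.24 SE, adjusted p = 2.93e-06) with TAZ-CCl4 values between 378 and 479. The nuclear IkappaB proteins encoded by Nfkbid and Nfkbiz modify transcription by NF-kappaB. Nfkbid rose from 7.54 ± 2.89 to 34.7 ± 5.13 (log2 fold change 2.12 ± 0.36 SE, adjusted p = 5.46e-04; 1.35 with a pseudocount of 10), and Nfkbiz from 257 ± 21.4 to 442 ± 64.3 (log2 fold change 0.77 ± 0.15 SE, adjusted p = 0.00133).

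Nfkbia encodes IkappaB alpha, the inhibitor best known to be resynthesised on NF-kappaB activation. It was at 897, 1207 and 1053 in control replicates 1 to 3 and 761, 841, 658, 966 and 933 in TAZ-CCl4 replicates 1 to 5. TAZ-CCl4 replicates 1, 2 and 3 lay below all controls and replicates 4 and 5 within their range, and Nfkbia did not pass (log2 fold change -0.34 ± 0.16 SE, adjusted p = 0.0826). It was called lower without TAZ-CCl4 replicate 4 (-0.40) and was higher at equal totals (0.91). Nfkbib, which encodes IkappaB beta, was at 496 ± 51.8 and 433 ± 78.0 and did not pass (log2 fold change -0.21 ± 0.18 SE, adjusted p = 0.322), and it too was higher at equal totals (1.04). Its exons overlap those of the opposite-strand genes Sirt2 and Ccer2. Nfkbia and Tnfaip3 thus differed in the same livers, with log2 fold changes of -0.34 and 4.07 at the deposited scaling and 0.91 and 5.29 at equal totals.

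**Figure D3:**
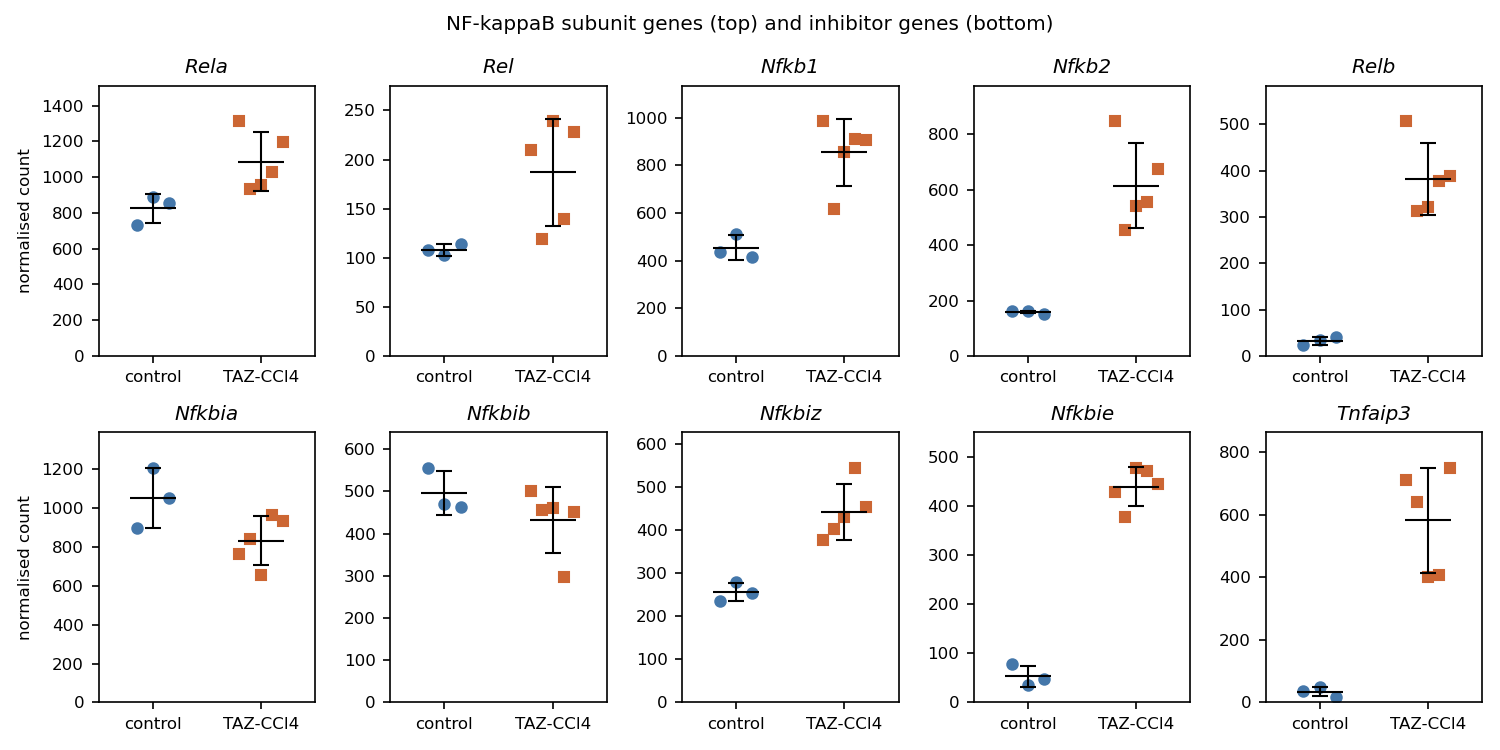
Normalised counts of the 5 NF-kappaB subunit genes (top row) and of 5 of the 6 inhibitor genes (bottom row), with circles for control libraries (n = 3), squares for TAZ-CCl4 libraries (n = 5) and bars for the mean ± SD. Relb, Nfkb2, Nfkbie and Tnfaip3 show wide gaps between the groups, Rela a narrow one, and Nfkbia and Nfkbib overlap.

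Promoter sequence is shown because several of these genes are textbook NF-kappaB targets and yet moved by different amounts. RefSeq promoters (GRCm38.p6, the 250 bases before each start) were at hand for 46 of the 56 genes. The kappaB consensus of 10 letters, searched on both strands, was found in at least 1 promoter of 11 of the 46 genes (Ltb, Nfkb2, Nfkbia, Nfkbid, Nfkbie, Rel, Tnfaip3, Tnfrsf25, Tnfrsf8, Tnfrsf9 and Traf3). Of the 11, 8 rose, Nfkbia did not pass, and Tnfrsf8 and Tnfrsf9 were not tested. In the whole family 30 of the 44 tested genes rose. Of the 8, Nfkbid and Tnfrsf25 were tested only through their TAZ-CCl4 values. A link between the match and the rise was not tested. Counting only the first promoter listed for a gene, 8 of 46 genes (17.4%) held the consensus, beside 7.25% of all 32851 listed promoters. Among tested genes with a promoter, 7 of 36 of the family (19.4%) held it, beside 8.59% of all 10884. Capitals mark the matches in the windows of 2 inhibitor genes with different outcomes, read 5′ to 3′ on the gene's strand.
Nfkbie, chr17:45555450-45555699, plus strand: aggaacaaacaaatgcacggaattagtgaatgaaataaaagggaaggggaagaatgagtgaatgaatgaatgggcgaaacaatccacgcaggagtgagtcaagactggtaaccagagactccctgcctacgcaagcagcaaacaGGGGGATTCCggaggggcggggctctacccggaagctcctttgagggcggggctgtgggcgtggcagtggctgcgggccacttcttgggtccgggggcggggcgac
Nfkbia, chr12:55492648-55492897, minus strand: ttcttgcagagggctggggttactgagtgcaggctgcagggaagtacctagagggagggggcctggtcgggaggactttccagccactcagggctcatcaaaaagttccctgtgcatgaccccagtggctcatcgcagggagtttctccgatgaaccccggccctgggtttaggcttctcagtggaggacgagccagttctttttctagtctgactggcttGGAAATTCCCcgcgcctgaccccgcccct

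The Nfkbie window has 1 match, beginning 106 bases before the start, and Nfkbie rose 8.505-fold. The Nfkbia window also has 1, beginning 29 bases before the start, and Nfkbia did not pass. A match of letters is not evidence of binding, and the windows hold no distal elements. Matches of 4 other genes that rose are given as examples, with 8 flanking bases where the window allows, to show how the letters vary.
Tnfaip3, 125 bases before the start: ctcacgcgGGGACACCCCggggcggg
Tnfaip3, 12 bases before the start: tttccatcGGAAATCCCCct
Nfkb2, promoter 1, 39 bases before the start: atcgtcacGGGAATTCCCCccctcggg
Nfkb2, promoter 1, 11 bases before the start: ggccgaaaGGGGCTTTCCc
Nfkb2, promoter 3, 225 bases before the start: gtattttcGGGACTTTCCtaagcagc
Ltb, 87 bases before the start: gggtgttcGGAAAGTCCCcgggcagg
Traf3, 10 bases before the start: cggcccgcGGGGATTTCC

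Tnfaip3 and the first Nfkb2 promoter each held 2 separate matches, and the run of 11 capitals in Nfkb2 comes from 2 matches that overlap. The TEAD motif GGAATG, through which TAZ reaches DNA with TEAD factors, and the AP-1 motif TGANTCA were searched on both strands in the same windows. GGAATG was found for 7 genes (Eda2r, Nfkb2, Tnfrsf11a, Tnfrsf1b, Tnfsf13, Tnfsf15 and Tnfsf18), and in the second Nfkb2 promoter it overlaps a kappaB match. By first promoter it was in 4 of the 36 tested genes (11.1%), beside 10.7% of all tested genes, and 12.6% of all promoters held it. TGANTCA was found for 9 genes, among them Fas, Nfkbie and Tnfaip3, and by first promoter in 4 of the 36 tested genes (11.1%), beside 4.69% of all tested genes, and 6.75% of all promoters held it. These shares were not tested. The window of Tnfrsf12a held none of the 3 motifs. Of the kappaB matches printed, some lie in windows that annotated exons cover in part or in full. Exons covered all 250 bases of the first Nfkb2 window and 234 bases of the third. They covered 110 bases of the first Tnfaip3 window, 68 of the Ltb window and 0 of the Traf3, Nfkbie and Nfkbia windows.

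Genes of the signalling proteins between receptors and NF-kappaB rose and fell in shares near those of all tested genes. Of 29 tested adaptors, kinases and ubiquitin enzymes, 9 rose and 10 fell, and the remaining 10 did not pass, where 32.4% of all tested genes rose and 29.8% fell. Their median log2 fold change was -0.079. Equal totals gave 26 higher and 0 lower and a median of 1.17. Map3k14, which encodes the NF-kappaB inducing kinase of the noncanonical branch, had the largest rise. It was at 68.9, 61.1 and 35.4 in the controls and 247, 235, 245, 212 and 269.9 in the TAZ-CCl4 libraries, and every TAZ-CCl4 library was above every control (log2 fold change 2.16 ± 0.23 SE, adjusted p = 2.31e-05). Tnip1, whose product works with A20, rose from 162 ± 26.3 to 624 ± 68.3 (log2 fold change 1.95 ± 0.15 SE, adjusted p = 3.62e-06). The largest falls were those of Optn, which encodes the ubiquitin-binding protein optineurin, from 2117 ± 181 to 739.7 ± 287 (log2 fold change -1.598 ± 0.28 SE, adjusted p = 5.68e-04), and of Chuk, which encodes the kinase IKK alpha. Chuk was at 3103, 3141 and 3091 in the controls and 1051, 1248, 980.3, 1056 and 1093 in the TAZ-CCl4 libraries, close together within each group (log2 fold change -1.52 ± 0.11 SE, adjusted p = 2.43e-06). At equal totals neither Optn nor Chuk passed (-0.35 and -0.27). Both were called lower with Mup and mitochondrial genes left out of the totals (-0.77 and -0.69). The same held at equal upper quartiles (-1.40 and -1.32) and after quantile normalisation (-1.20 and -0.97). Map3k14 encodes the kinase that activates the product of Chuk in the noncanonical branch. Map3k14 and Chuk had log2 fold changes of opposite sign at the deposited scaling and at equal totals.

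Of the genes of cell death complexes, Ripk3 and Mlkl of necroptosis rose (1.74 and 1.28), with both calls lost after quantile normalisation (0.698 and 0.67). Casp8 and its inhibitor Cflar fell at the deposited scaling (-0.56 and -0.72) and were higher at equal totals (0.69 and 0.53), and neither passed after quantile normalisation (-0.44 and -0.19). Ripk1, Fadd and Tradd did not pass (-0.027, -0.33 and 0.20) and were higher at equal totals (1.22, 0.92 and 1.45), and Fadd was called lower after quantile normalisation (-0.73). Birc2 and Birc3, which encode the cellular inhibitor of apoptosis ligases that bind Traf2, rose (1.05 and 0.54), and Xiap fell (-1.12; 0.13 at equal totals). These 10 genes were picked as examples after their values were seen. Of the superfamily genes whose symbols the rule does not match, Relt, tested only through its TAZ-CCl4 values, rose from 3.80 ± 0.842 to 60.7 ± 25.5 (log2 fold change 3.57 ± 0.44 SE, adjusted p = 6.19e-05; 2.27 with a pseudocount of 10), Eda from 41.1 ± 32.05 to 113 ± 37.2 (log2 fold change 1.65 ± 0.46 SE, adjusted p = 0.00948; control mean 23.0 and log2 fold change 2.24 without control replicate 3) and Cd40 by 0.997 on the log2 scale. After quantile normalisation the calls for Eda and Cd40 were lost (0.77 and 0.0011). Ngfr did not pass (1.01; higher at equal totals, 2.22), and Cd27, Cd70, Cd40lg, Edar and Edaradd were too low to be tested.

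Most of the known NF-kappaB response genes rose. Of 25 tested, 18 rose and 3 fell, while 4 did not pass, beside 32.4% and 29.8% of all tested genes. Their median log2 fold change was 2.76, with the genes included that the filter let through only by their TAZ-CCl4 values. Equal totals gave 22 higher and 1 lower and a median of 4.01. The filter had let 7 of the 25 through only by their TAZ-CCl4 values, and among the other 18, 11 rose and 3 fell, beside 27.8% and 32.4% of all genes with a control mean of at least 10. Ccl2, the monocyte chemokine gene, was at 5.89, 15.8 and 6.24 in the controls and 2469, 284, 1089, 1090.4 and 1556 in the TAZ-CCl4 libraries, with TAZ-CCl4 replicate 2 lowest (log2 fold change 6.80 ± 0.60 SE, adjusted p = 6.41e-06; 5.82 with a pseudocount of 10, and a control mean of 6.06 in place of 9.32 without control replicate 2). Ccl20, a chemokine gene of epithelial cells, was listed at 0 in all 3 controls and at 273, 1.11, 209, 65.7 and 112 in TAZ-CCl4 replicates 1 to 5, so that replicate 2 stood apart and no fold change is given. The adhesion molecule genes Icam1 and Vcam1 rose (log2 fold change 2.76 ± 0.18 SE, adjusted p = 1.47e-06, and for Vcam1 log2 fold change 2.74 ± 0.13 SE, adjusted p = 3.00e-07). Sod2, which encodes mitochondrial superoxide dismutase, and Junb, an AP-1 gene, had the largest falls. Sod2 was at 4196, 4505 and 4397 in the controls and 1018, 1447, 1356, 1267 and 1233 in the TAZ-CCl4 libraries (log2 fold change -1.80 ± 0.13 SE, adjusted p = 2.28e-06), and it stayed lower at equal totals (-0.55). Junb fell from 4323 ± 500.5 to 1933 ± 508 (log2 fold change -1.20 ± 0.21 SE, adjusted p = 7.16e-04) and had a log2 fold change of 0.055 at equal totals and -0.47 after quantile normalisation, passing in neither. Icam1 and Vcam1 were chosen as examples after their values were seen.

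**Figure D4:**
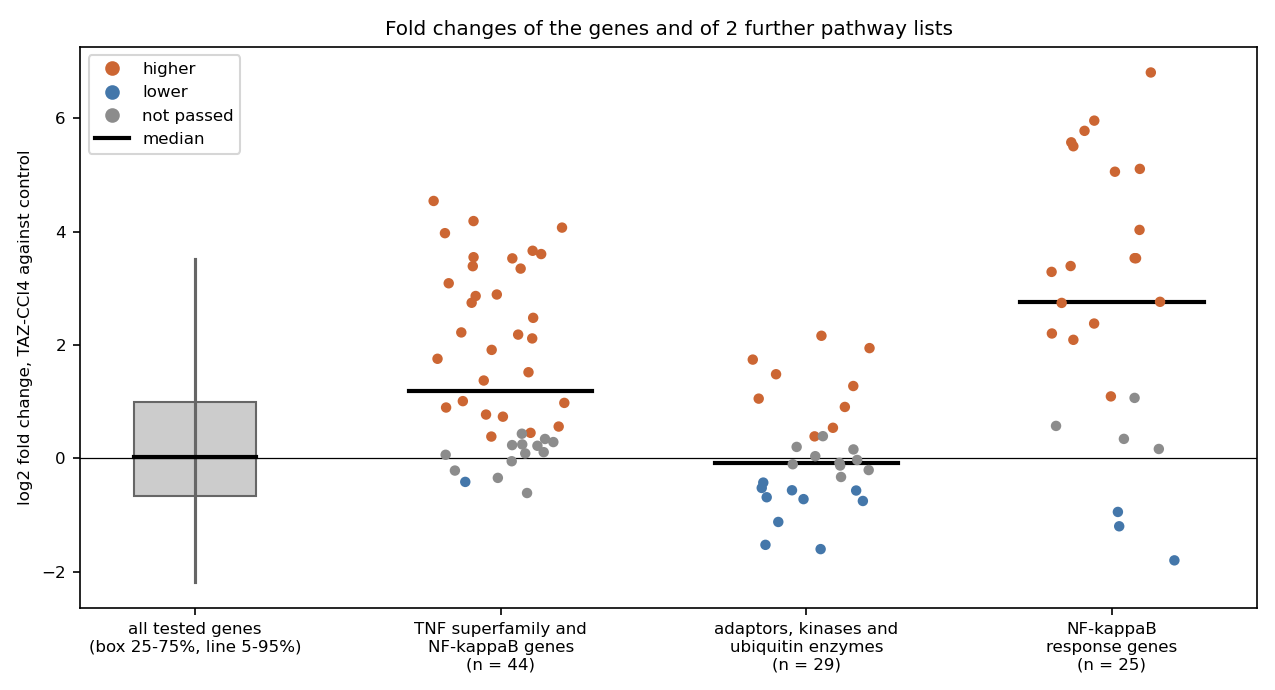
Log2 fold changes (TAZ-CCl4 against control) of the 44 tested TNF superfamily and NF-kappaB genes, 29 adaptors, kinases and ubiquitin enzymes and 25 NF-kappaB response genes, with 1 point per gene coloured by call, beside the spread of all tested genes (box 25% to 75%, line 5% to 95%, thick lines medians). The medians are 1.19, -0.079 and 2.76, beside 0.025 for all tested genes. Only 36 of the 44 and 18 of the 25 had a control mean of at least 10, and the others passed the filter only through their TAZ-CCl4 values.

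Markers of other liver cells moved in the same libraries, and their part in the rises above was not tested. The summed macrophage and Kupffer cell markers were at 1986 to 3469 in the controls and 8642 to 17473 in the TAZ-CCl4 libraries, where 7 of 12 rose, among them Csf1r and Trem2 (log2 fold changes 3.87 and 5.58), and Timd4 of resident Kupffer cells fell (-3.53). Clec4f, Vsig4, Cd5l and Marco of the same list did not pass (-2.35, -0.16, -0.39 and 0.91). In the TAZ-CCl4 libraries they varied widely, with Clec4f at 29.0 to 887 and Cd5l at 54.8 to 1261. At equal totals Vsig4 and Cd5l turned positive without passing (1.08 and 0.86), and Marco was higher (2.12). Neutrophil markers summed to 61.8 to 69.9 in the controls and 406 to 764 in the TAZ-CCl4 libraries. Ly6g, Camp and Ngp were at 0 in every control and too low to be tested. They reached at most 4.66, 11.7 and 31.4 in the TAZ-CCl4 libraries, where Ly6g and Camp were also at 0 in some. All 8 cholangiocyte markers rose, and their sum was 2335 to 2928 in the controls and 35262 to 123718 in the TAZ-CCl4 libraries. Most of that sum came from Spp1, which macrophages also express, and without Spp1 it was 674 to 843 in the controls and 3478 to 8618 in the TAZ-CCl4 libraries. The stellate cell and fibroblast sum was 2369 to 4018 in the controls and 8557 to 16328 in the TAZ-CCl4 libraries. Most of that rise came from Col1a1 and Col3a1, with means of 126 and 409 in the controls and 2469 and 4780 in the TAZ-CCl4 libraries. Of the 10 markers 6 rose, and Lrat, Reln, Des and Dcn did not pass (-0.65, -0.38, 0.30 and 0.19). At equal totals Des and Dcn were higher (1.54 and 1.44), and Lrat and Reln did not pass (0.59 and 0.87). The NK cell sum was 32.2 to 38.4 in the controls and 48.3 to 112 in the TAZ-CCl4 libraries. Klrk1 added most to it, with means of 13.1 and 43.6. Klrk1 and Klrb1c rose (1.62 and 1.41), and both calls were lost after quantile normalisation (0.54 and 0.14). Gzma did not pass (0.46, and 1.52 at equal totals). Klrb1c and Gzma passed the filter only through their TAZ-CCl4 values, and Ncr1, Prf1 and Eomes were too low to be tested. Dendritic cell markers summed to 187 to 214 in the controls and 352 to 703 in the TAZ-CCl4 libraries. Most of that rise came from Itgax, at 7.801 to 34.61 in the controls and 134.6 to 410.1 in the TAZ-CCl4 libraries. Itgax was the only 1 of the 5 tested dendritic cell markers that rose. Flt3, Siglech, Zbtb46 and Clec9a did not pass (1.46, 0.78, 0.34 and -1.05). At equal totals all but Clec9a were higher (2.59, 1.90, 1.58 and 0.16). For endothelial cells the sums overlapped, at 1579 to 2939 in the controls and 2103 to 3247 in the TAZ-CCl4 libraries. The ratio of the mean sums was 1.21, and 2.82 at equal totals. Single endothelial markers moved both ways. Pecam1, Cdh5, Vwf and Tie1 rose (0.93, 1.93, 1.39 and 0.86), and Stab2 and Clec4g fell (-1.23 and -2.65). Kdr and Lyve1 did not pass (0.44 and 0.82). At equal totals Kdr and Lyve1 were higher (1.68 and 2.04), and Stab2 and Clec4g did not pass (0.015 and -1.41). Of 10 hepatocyte markers 9 fell at the deposited scaling, and at equal totals 5 did. Tnf, Ltb and Tnfrsf1b are expressed mainly by immune cells, whereas Tnfrsf12a and Tnfrsf10b are known in epithelial cells as well, and bulk values do not assign the RNA of any of them to a cell type.

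**Figure D5:**
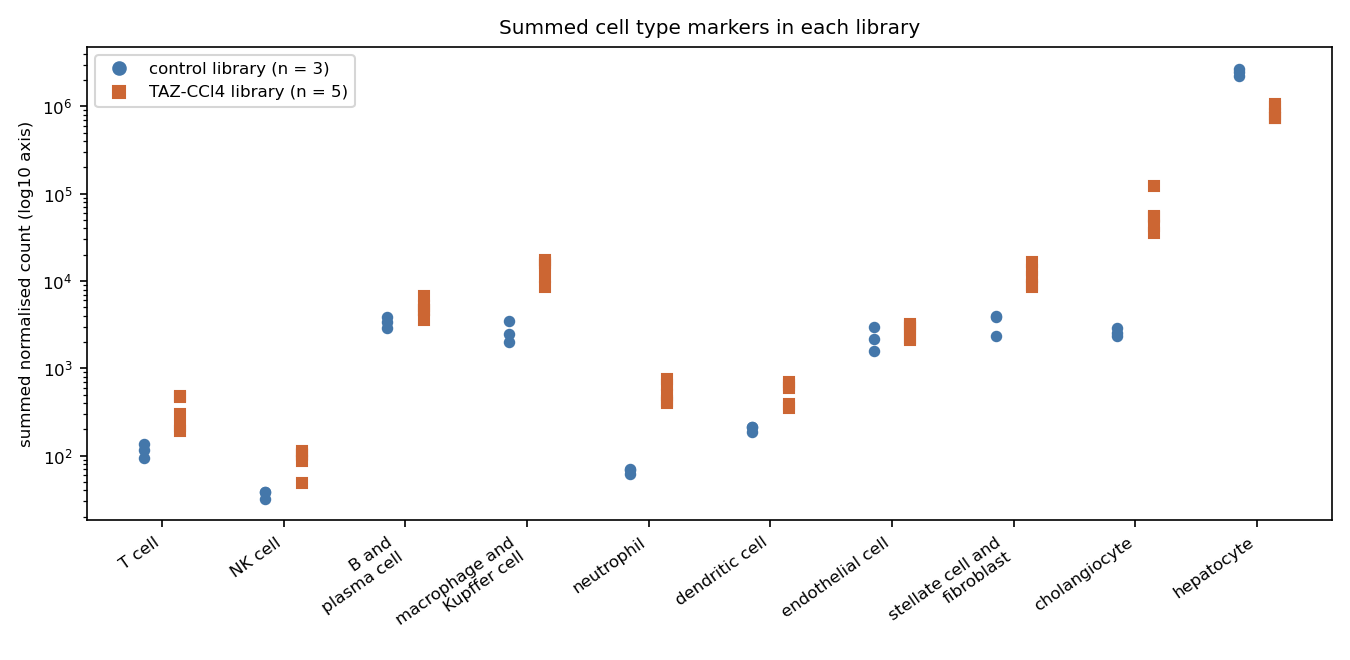
Summed normalised counts (log10 axis) of the markers of 10 cell types in each control library (circles, n = 3) and each TAZ-CCl4 library (squares, n = 5). The sums of T cells, NK cells, macrophages, neutrophils, dendritic cells, stellate cells and cholangiocytes are higher in every TAZ-CCl4 library than in every control. Hepatocyte sums are lower, and B-cell and endothelial sums overlap, although single endothelial markers rose and fell. Most of the rise in the dendritic cell sum came from Itgax, and most of that in the stellate cell sum from Col1a1 and Col3a1.

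The 5 TAZ-CCl4 libraries were not alike in these genes. Of the 44 tested genes, replicate 1 held the highest of the 5 values in 14, replicate 3 in 13, replicate 4 in 10, replicate 5 in 4 and replicate 2 in 3. Replicate 2 held the lowest value in 18, replicate 1 in 9, replicate 4 in 8, replicate 3 in 5 and replicate 5 in 4. The same counts were not made over all tested genes, so they are not read as particular to this family. Replicate 1 was highest in Relb, Nfkb1, Nfkb2, Rela, Tnfrsf12a, Tnfrsf21 and Tnfrsf1a, and it also held the highest Wwtr1 value (9021, against 4339 to 5299 in the others). Replicate 4 was highest in Ltb (404), Tnfsf13 (136), Eda2r (167) and Tnfrsf10b (288), and its summed T-cell markers (474) were close to the highest, those of replicate 3 (483). The genes named for a replicate were picked because it was highest in them. With 5 libraries no correlation was computed, and a link of these genes with Wwtr1 or the T-cell markers was not tested. Without TAZ-CCl4 replicate 1, 28 of the 44 genes rose and 0 fell, and without replicate 2, 29 rose and 0 fell.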

How the data were processed

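Poly-A RNA of mouse liver was measured in 3 control and 5 TAZ-CCl4 libraries. The authors deposited 1 table of normalised counts per gene, a signal that is neither whole nor of equal total between libraries; kallisto and DESeq2 are named by the deposited table's own name, DESeq2 and mm10 also per the submitters' processing notes, with versions, annotation and filters not given in the sources used here. Whole reads could not be recovered (47.3% to 66.7% of values under 10 were within 0.03 of a multiple of the library's commonest low value), so the depth is unknown. Genes whose values averaged at least 10 across all 8 libraries were fitted on log2(value + 1) with limma 3.58.1 in R 4.3.3, letting the prior variance follow a trend, without covariates, and with Benjamini-Hochberg adjustment over all 14171 tested genes (threshold 0.05, two-sided). Fold changes refer to log2(value + 1), so those of low genes come out too small. The fit was tested on simulated data.

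The members and lists were chosen with earlier results of these data known. Values in every library are given for 22 genes whatever their values, for the 6 called members with the largest rise and the 6 with the largest fall whose higher group mean was at least 50 (only Fas had fallen), and the 2 largest rises and falls of each other list are named. Other genes named from those lists were chosen after their values were seen. One marker of the B and plasma cell list is not reported here and was left out of its sum. Alternatives were 4 other scalings, a pseudocount of 10, no filter, no trend, each library left out, and the replicate number as a block. Gene positions are from GENCODE M21 (mm10) and promoters from RefSeq (GRCm38.p6).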

Additional observations from a re-analysis of the deposited data

Results flagged for a closer look

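In 44 tested genes the 5 TAZ-CCl4 values were examined for a library standing apart from the others, and 1 was found, where about 1 in 20 would arise by chance. Nfkbib, the gene of IkappaB beta, was at 297.7 in TAZ-CCl4 replicate 4, while the next lowest library held 451, a gap of 0.80 of the group's range against a critical value of 0.71. Without that library the log2 fold change of Nfkbib was -0.085, in place of -0.21, and the gene passed in neither case.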

How the results depend on the processing

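Of the 44 tested genes, 26 to 29 rose and 0 to 1 fell when each library was left out in turn. A pseudocount of 10 gave 29 rises and the fit without a variance trend 30. With no filter on low values more of the 56 genes were tested, and 33 rose and 0 fell. Equal totals gave 43 higher and 0 lower, the same after removing Mup and mitochondrial genes 42 and 0, equal upper quartiles 34 and 0, and quantile normalisation 26 and 3. Over all 14171 tested genes, equal totals gave 10808 higher and 903 lower, and leaving out Mup and mitochondrial genes 8912 and 1512. Equal upper quartiles gave 5467 higher and 3315 lower over all genes, and quantile normalisation 3941 and 4227. Counts over all genes for the other settings are not given here. For the adaptors the 2 equal-totals scalings gave 26 and 20 higher and 0 and 2 lower, and for the response genes 1 lower in each.

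Scaling to equal totals, with all genes and then after removing Mup and mitochondrial genes, turned the sign of Fas (0.83 and 0.42), Ltbr (1.20 and 0.78), Nfkbia (0.91 and 0.49), Nfkbib (1.04 and 0.62) and Tnfrsf11b (0.56 and 0.17). Ltbr was also positive at equal upper quartiles (0.15) and after quantile normalisation (0.45), and ranged from -0.13 to 0.025 when each library was left out. Quantile normalisation turned Tnfrsf14 (-0.070), Tnfrsf22 (-0.63), Tnfrsf4 (-1.06), Tnfsf10 (-0.58) and Traf5 (-0.20). With each library left out, Tnfrsf4 ranged from -0.26 to 0.41 and Traf6 from -0.0027 to 0.18. The cause of these changes was not tested.

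The replicate numbers name libraries of separate projects, and the deviations of same-numbered libraries correlated at -0.066, -0.076 and -0.090, so the numbers did not pair them. With the replicate block on replicates 1 to 3, 25 genes rose and 1 fell, against 28 and 2 in the same libraries without a block. In both of these fits Ltbr was at 0.060 and Traf7 at -0.024. The fit without a block was chosen after seeing the data. The depth is unknown, so no counting error can be given for genes with values of a few normalised counts.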
